A study of Mus musculus with 11 samples.

Results

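Genes of the fetal liver that come back in liver cancer were followed in whole mouse livers in which YAP had been switched on. The list held 10 genes (Afp, H19, Igf2, Igf2bp1, Igf2bp2, Igf2bp3, Dlk1, Gpc3, Lin28b and Spink3), which were found by their symbol. Of these, 9 had a row among the 20893 genes of the table, and Spink3 was not analysed here. The livers came from C57BL/6 mice, 1 library per mouse. The 4 control mice had the genotype ROSA26-rtTA-IRES-EGFP; WT and ate doxycycline food for 7 days, 4 mice with ROSA26-rtTA-IRES-EGFP; tetYAP ate it for 3 days, and 3 mice with the same transgenes ate it for 7 days. Every mouse therefore received the drug, and the controls lacked tetYAP. This transgene encodes a constitutively active YAP, mutated at an inhibitory phosphorylation site. In this cross the floxed rtTA is opened by Alb-CRE, so that the transgene answers to doxycycline where the albumin promoter has been active, chiefly in hepatocytes. The labels do not say which mice carried Alb-CRE. RNA was taken from the homogenized liver, so that a change in the mix of cells and a change of RNA per cell cannot be told apart. The age of the mice was not given in the labels, and whether litter mates were shared between groups was not given either.

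As background, YAP is the coactivator at the end of the Hippo pathway and acts on DNA through TEAD factors. In the fetal liver, hepatoblasts make alpha-fetoprotein, glypican 3, DLK1 and the growth factor IGF2, and hepatocytes shut these genes off around birth. Several of them return in hepatocellular carcinoma and hepatoblastoma, where AFP and GPC3 serve as markers. Behind them stand RNA-binding proteins of the same fetal program. LIN28B blocks the maturation of the let-7 microRNAs, and IGF2BP1, IGF2BP2 and IGF2BP3, whose mRNAs include let-7 targets, bind and stabilise transcripts such as that of IGF2.

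The upstream sequences of the surface marker Gpc3 and the plasma marker Afp are shown first, since TEAD factors act through short DNA motifs. Gpc3 rose furthest of the members and Afp, the best known fetal marker, did not pass the test at either time. Both sequences are the 250 bases before the RefSeq start (from a RefSeq table built on GRCm38.p6), each found at a single place in the mm9 genome by exact match. Capitals mark CG dinucleotides, and both are read 5′ to 3′ toward the gene.
Gpc3, chrX:49967152-49967401, minus strand: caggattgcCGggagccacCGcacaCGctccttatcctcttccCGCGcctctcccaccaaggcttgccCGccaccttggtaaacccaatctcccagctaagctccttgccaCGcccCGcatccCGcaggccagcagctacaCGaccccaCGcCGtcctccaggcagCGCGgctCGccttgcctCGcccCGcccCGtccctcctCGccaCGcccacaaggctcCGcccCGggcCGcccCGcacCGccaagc
Afp, chr5:90919490-90919739, plus strand: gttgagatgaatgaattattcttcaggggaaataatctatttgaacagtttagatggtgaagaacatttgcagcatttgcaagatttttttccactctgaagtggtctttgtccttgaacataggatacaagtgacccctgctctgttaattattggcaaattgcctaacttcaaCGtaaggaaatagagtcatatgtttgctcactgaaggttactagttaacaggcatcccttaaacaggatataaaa
The Gpc3 window held 25 CG dinucleotides and 71.6% G and C bases, against 1 CG dinucleotide and 36.0% in Afp. Over the 32851 promoters of the same length, the median was 6 CG dinucleotides and the upper quartile 16. The Afp window holds the letters TATAAA from 7 bases before the start, and 7.6% of all promoters hold these letters somewhere in the same strand of their window. The TEAD core letters GGAATG, searched on both strands (CATTCC on the other), were in neither window. RefSeq promoters were matched for 7 of the 9 genes, 10 windows in all. The letters were found in 3 of the 4 Igf2 windows and in none of those of Igf2bp2, Igf2bp3, Dlk1 or Lin28b, while 12.6% of all promoters hold them. Igf2bp1 and H19 had no entry. A match is a description of letters, and these windows do not cover enhancers.

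The values are eRPKM, in which the authors divided the reads on a gene's exons by their length in kilobases and by the size of the library. They measure a share of the reads and can be compared between genes, except for the most abundant ones. Reads on Alb and Gc hardly changed with library depth, so that their eRPKM does not give their share. The libraries held 1251396 to 5941357 reads on genes, lowest in control liver 4 and highest in liver 2 at 7 days, and the 7-day libraries were among the deepest. Controls and the 3-day group each held 2 livers with more Xist than Ddx3y reads, as in females, and all 3 livers at 7 days were of this kind, so sex and the 7-day group were partly confounded. Hepatocyte markers were abundant in every library, with a sum over 7 genes of 1243 to 4631 eRPKM. That sum includes Alb and so depends on depth. In controls Apoa1, Apob and Fgb spread much as Alb did (268 to 918 eRPKM), at 255 to 849, 265 to 849 and 248 to 857. One library stood apart. Liver 2 at 7 days had reads on 59.0% of 1262 olfactory and vomeronasal receptor genes, which the liver should not express, against 1.43% to 1.66% in the other livers at 7 days and 0.475% to 29.9% in the remaining livers. It also had the highest value of its group in 8 of the 9 measured members, against 47.5% of all tested genes. For Gpc3, Igf2bp1, Igf2, H19 and Dlk1 the 7-day change against control is given with and without it.

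**Figure D1:**
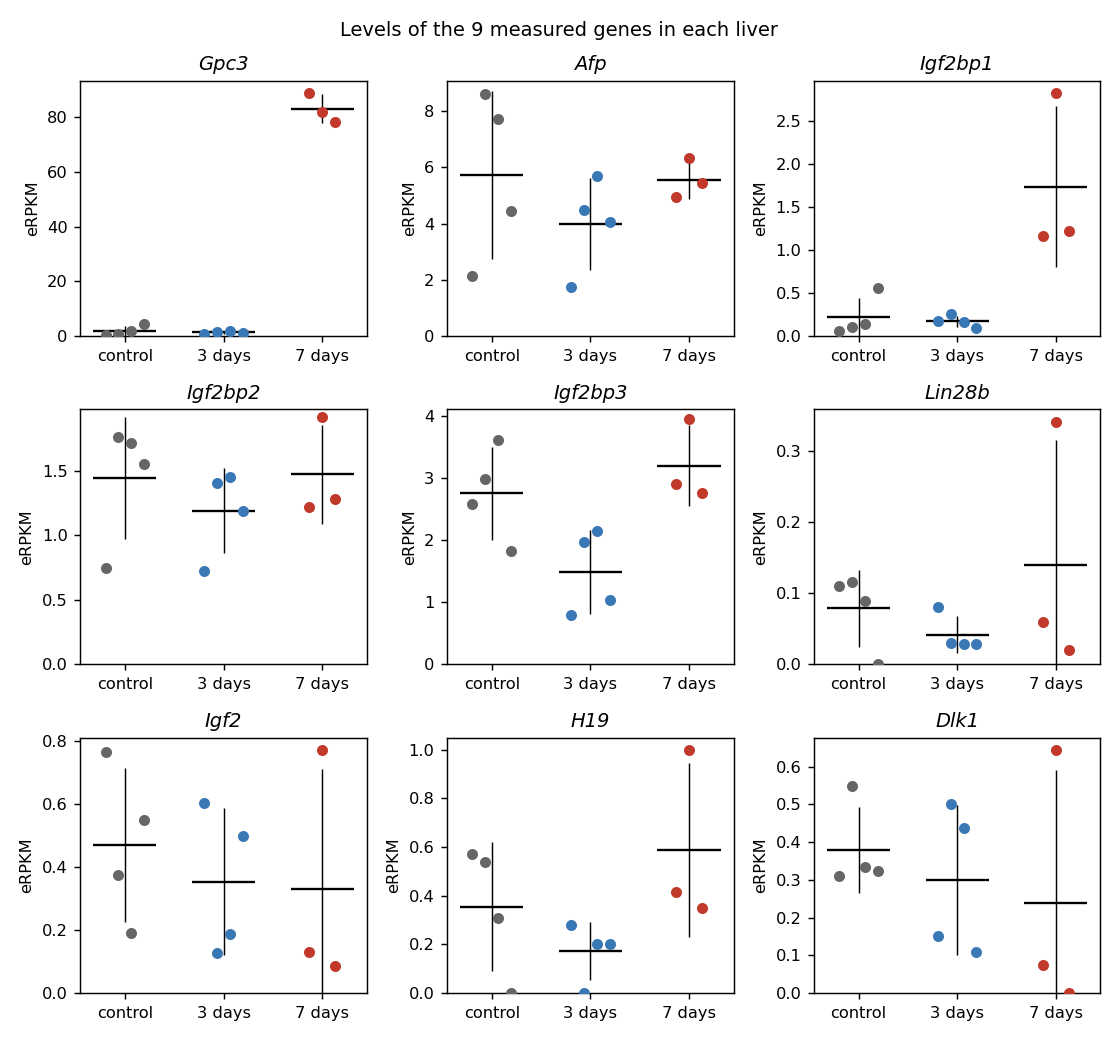
Level of each of the 9 measured genes (vertical axis, eRPKM, a separate scale for each gene) in control livers (n = 4), after 3 days (n = 4) and after 7 days (n = 3). Each point is 1 liver in the order of its number, the horizontal line is the group mean and the vertical line is 1 SD either way, stopped at 0. Gpc3 and Igf2bp1 at 7 days lie above every other liver, and the other 7 genes overlap with the controls.

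None of the members passed the test after 3 days, and 2 did after 7 days. Of the 9 genes, 8 passed the filter of at least 0.5 eRPKM in at least 3 libraries and were tested together with 14244 genes by limma, and a gene was called where its adjusted p was under 0.01 and its log2 fold change was beyond 0.5 in either direction. Lin28b did not pass the filter. At 3 days limma called 0 of the 8, where 0.0421% of all tested genes were called in either direction. One of them, Igf2bp3, had an unadjusted p under 0.05, and limma-voom on recovered reads also called 0. At 7 days 2 of the 8 were called up, Gpc3 and Igf2bp1, and none down, where 18.0% of all tested genes were called up and 5.77% down. Against the 3-day livers the same pair was called up, where 14.0% of all genes were. The share of members called up at 7 days was thus close to that among all genes. The median log2 fold change over the 8 members was 0.16 at 7 days against 0.26 over all tested genes, and -0.19 against 0.02 at 3 days. Scaling by median-ratio size factors brought the median of all genes at 7 days to 0.03, with 13.7% of genes called up and 8.8% down, and quantile normalization brought it to -0.08, with 13% up and 12.8% down. Under quantile normalization the 7-day values of Afp, Igf2bp2 and Igf2bp3 turned to -0.56, -0.46 and -0.47, none past the threshold, while Gpc3 kept its call in each scaling.

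**Figure D2:**
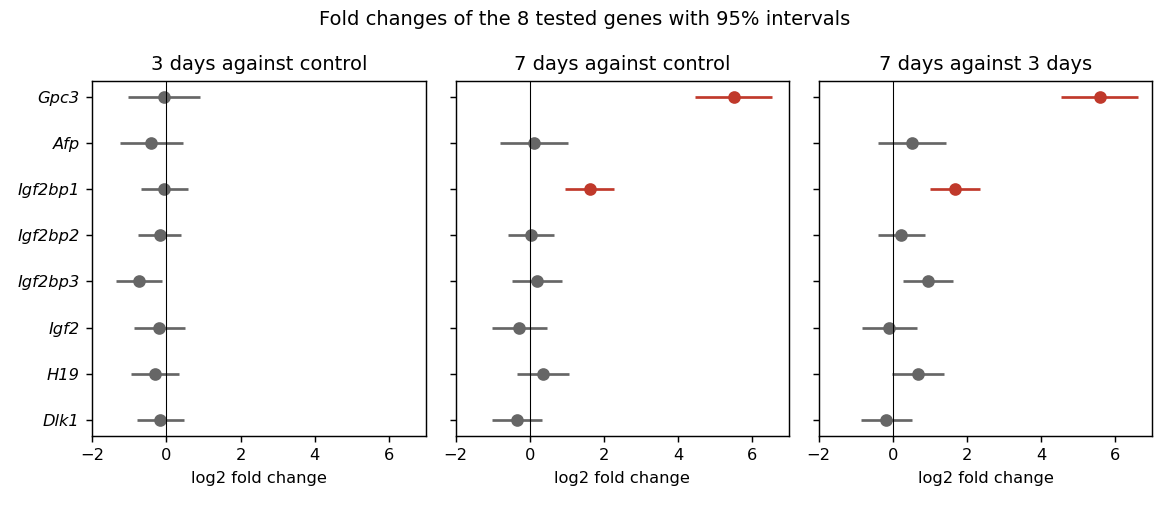
Log2 fold change of the 8 tested genes (horizontal axis, on the log2(eRPKM + 0.5) scale) with its 95% interval from limma, for the 3 comparisons; red marks genes called at adjusted p under 0.01. At 7 days Gpc3 stands at 5.51 and Igf2bp1 at 1.61 against control, while the intervals of the other 6 genes include 0.

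Gpc3, glypican 3, is a heparan sulfate proteoglycan held on the cell surface by a lipid anchor, which binds Wnt, Hedgehog and growth factor ligands. It lies on chromosome X (49625603 to 49967127, minus strand, mm9, 8 merged exons), and no other annotated exon overlaps it. Control livers 1 to 4 had 0.275, 0.845, 1.78 and 4.29 eRPKM, which rested on 3 to 15 reads per library. The 3-day livers had 0.671, 1.48, 1.94 and 1.17 eRPKM, on 5 to 20 reads, within the range of the controls. The 7-day livers had 88.8, 82.0 and 78.5 eRPKM, on 1165 to 1363 reads. Every 7-day liver lay far above every other liver, and the 3 livers were close to each other.

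The group means of Gpc3 were 1.80 ± 1.77 eRPKM (SD, n = 4), 1.31 ± 0.535 (n = 4) and 83.1 ± 5.29 (n = 3), so that the 7-day mean was 46.2 times that of the controls, and 85.9 times without control liver 4. On the log2(eRPKM + 0.5) scale the change was 5.51 (SE 0.48, limma adjusted p = 6.8e-06), and the exact permutation test gave p = 0.0286, the smallest that 3 livers against 4 allow. Across the 27 alternatives that change lay between 5.09 and 6.38 and was called in each, from 5.46 to 5.55 when 1 of the 7-day livers was left out. Among livers with more Xist than Ddx3y it was 5.57 (adjusted p = 1.6e-05), so that the rise was as large within that subset of the libraries. At 3 days the change was -0.07 (95% interval -1.04 to 0.90, adjusted p = 0.970). The step from 3 to 7 days, tested by itself, was 5.57 (SE 0.48, adjusted p = 9.3e-06).

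The other glypicans did not follow. Of the 5 others in the list, Gpc2 and Gpc5 did not pass the filter. From the remaining 3 limma called 0 up and 1 down at 7 days, where 18.0% of all tested genes were called up and 5.77% down. Gpc4, which adjoins Gpc3 on chromosome X, was the most abundant glypican in control livers, with 44.3 eRPKM in the highest and a mean of 39.4, and had 32.9, 39.3 and 36.7 at 7 days (log2 fold change -0.11, SE 0.20, adjusted p = 0.697). Gpc1 had 3.06 to 6.77 eRPKM in controls and fell to 1.23 to 1.43 at 7 days (log2 fold change -1.46, SE 0.28, adjusted p = 0.00139), a call lost in 3 of 27 alternatives, among them livers with more Xist than Ddx3y (-1.15, adjusted p = 0.0207). Gpc6 had 1.73 to 3.39 eRPKM in controls and 0.597, 2.25 and 0.757 at 7 days, with liver 2 the highest, and did not pass (log2 fold change -0.78, adjusted p = 0.112). Inside each liver, the log2 gap of Gpc3 to Gpc4 was -4.43 on average in controls and 1.18 at 7 days. It moved by 5.61 between the groups, without overlap of single livers (exact permutation p = 0.0286). The gaps to Gpc1 and Gpc6 moved by 6.96 and 6.29 with the same p, the smallest possible, over 3 such comparisons at 7 days. The rise of Gpc3 is large enough to part the groups in each gap, so these p-values repeat its own test.

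**Figure D3:**
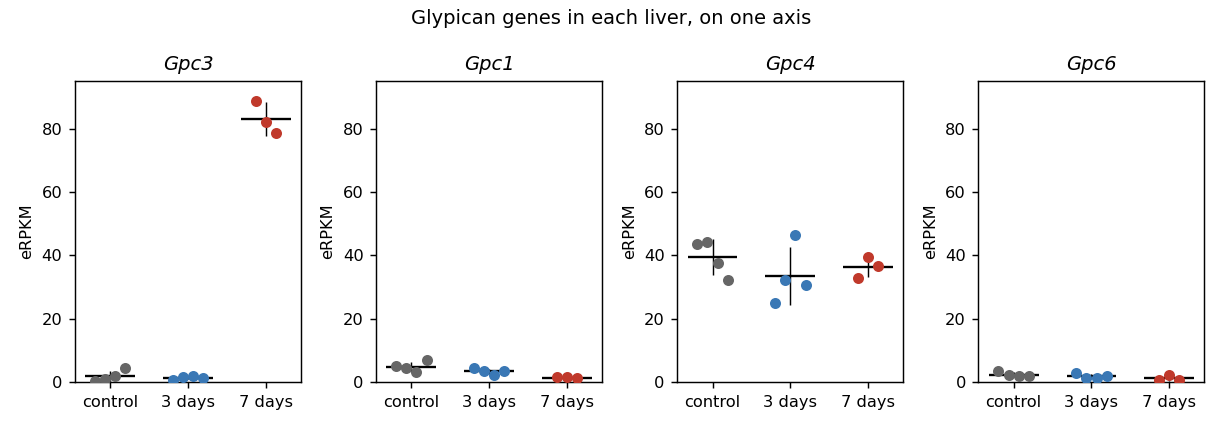
Level of Gpc3, Gpc1, Gpc4 and Gpc6 (vertical axis, eRPKM, the same scale in each panel) by liver and group, with the mean (horizontal line) and 1 SD (vertical line). Gpc3 goes from under 5 eRPKM to 78.5 or more at 7 days, while Gpc4 stays between 24.9 and 46.4 in all 11 livers.

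Afp, alpha-fetoprotein, is the albumin of the fetal plasma and the classical serum marker of hepatocellular carcinoma. It lies on chromosome 5 (90919740 to 90937933, plus strand, 15 merged exons) in a cluster with Alb, Afm and Gc. In controls 1 to 4 its level was 2.15, 8.62, 7.73 and 4.46 eRPKM. After 3 days it was 1.75, 4.49, 5.69 and 4.04, and after 7 days 4.95, 6.33 and 5.43. The 7-day livers lay inside the range of the controls, and the controls spread more widely than either induced group. The means were 5.74 ± 2.99 eRPKM (SD, n = 4), 3.99 ± 1.65 (n = 4) and 5.57 ± 0.704 (n = 3).

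The log2 fold change of Afp was -0.41 at 3 days (95% interval -1.27 to 0.44, limma adjusted p = 0.711) and 0.11 at 7 days (95% interval -0.81 to 1.03, adjusted p = 0.864, exact permutation p = 0.914). The change of Gpc3 lies far outside that interval. The highest Afp values among controls were those of livers 2 and 3, the ones with more Xist than Ddx3y. Among such livers only, the 7-day change was -0.52 (adjusted p = 0.154). Within each liver, the log2 gap between Gpc3 and Afp moved from -1.61 in controls to 3.79 at 7 days, a difference of 5.40 (exact permutation p = 0.0286). Here too the rise of Gpc3 is large enough to part the groups.

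The neighbours of Afp in the albumin cluster are adult plasma proteins that carry fatty acids, vitamin E and vitamin D. Of the 3, limma called 0 up and 1 down at 7 days, where 18.0% of all tested genes were called up and 5.77% down. Afm had 70.6 to 106 eRPKM in controls and fell to 29.9 to 44.5 at 7 days (log2 fold change -1.19, SE 0.18, adjusted p = 0.000253). Alb had a log2 fold change of -0.88 (SE 0.33, adjusted p = 0.0493) and Gc of -0.87 (SE 0.31, adjusted p = 0.0437), neither past the threshold. Without control liver 2 both were called (Alb -1.14, adjusted p = 0.00942, and Gc -1.13, adjusted p = 0.00729). Alb had 2417 to 3102 reads in every library whatever its depth, and Gc 1406 to 1885, so that their eRPKM moved with library depth. With log2 depth as a covariate the changes were -0.07 for Alb (adjusted p = 0.561) and -0.09 for Gc (adjusted p = 0.445), and with quantile normalization -0.02 and -0.08. Afm was still called in both settings, at -1.29 and -1.19. Per kilobase of exon, Gpc3 at 7 days had 433 to 507 reads, below the 1183 to 1518 of Alb.

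Among 12 tested genes that code for regulators of Afp and other fetal liver genes, limma called 1 up and 1 down at 7 days. That is 8.33% each way, where 18.0% of all tested genes were called up and 5.77% down. Zbtb20, a repressor of Afp after birth, had 29.1 to 44.0 eRPKM in controls and 32.2 to 34.3 at 7 days (log2 fold change -0.02, SE 0.25, adjusted p = 0.960). Zhx2, a repressor of Afp, H19 and Gpc3 in the adult mouse liver, ranged from 6.03 to 9.64 eRPKM in the control livers and from 4.25 to 17.1 in the 3-day livers. It reached 13.1 to 21.3 eRPKM after 7 days. Its 7-day livers lay above all controls, but the change did not pass (log2 fold change 1.04, SE 0.39, adjusted p = 0.0529). It was called in 2 of 27 alternatives, with only the 2 groups compared in the fit (adjusted p = 0.00525) and in the libraries without MF in their label (1.26, adjusted p = 0.00548). Trp53, the tumour suppressor p53, rose from 7.18 to 10.4 eRPKM in controls to 19.1 to 28.3 (log2 fold change 1.39, SE 0.35, adjusted p = 0.00703), a call lost in 13 of 27 alternatives. Nr5a2, a nuclear receptor that activates Afp in fetal liver, fell by 0.76 on the log2 scale (SE 0.16, adjusted p = 0.00301), a call lost without control liver 1, 7-day liver 1 or 7-day liver 3 (highest adjusted p = 0.0197). The other 8 did not pass. Their log2 fold changes were 0.73 for Zfhx3, 0.49 for Foxa1, 0.41 for Ctcf, 0.08 for Foxa2, -0.12 for Zhx3, -0.25 for Foxa3, -0.35 for Hnf4a and -0.75 for Cebpa, of which Zfhx3 and Cebpa were each called in 2 alternatives. Quantile normalization turned the sign of Foxa2 and Hnf4a.

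The 3 IGF2 mRNA-binding proteins moved differently. Igf2bp1, which binds MYC and IGF2 transcripts and is silent in most adult tissues, lies on chromosome 11 (95818477 to 95867254, minus strand). Control livers 1 to 4 had 0.0594, 0.105, 0.144 and 0.555 eRPKM, on 2 to 6 reads. The 3-day livers had 0.174, 0.255, 0.157 and 0.0943 eRPKM, on 3 to 8 reads, within the range of the controls. The 7-day livers had 1.17, 2.82 and 1.22 eRPKM, on 54 to 145 reads. All 3 lay above every control and 3-day liver, with liver 2 more than 2 times the others.

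The mean of Igf2bp1 went from 0.216 ± 0.229 eRPKM (SD, n = 4) in controls to 1.74 ± 0.941 (n = 3), a ratio of 8.04, which was 16.9 without control liver 4. The log2 fold change was 1.61 (SE 0.31, limma adjusted p = 0.00145, exact permutation p = 0.0286), with adjusted p of 0.000209 to 0.0118 over its alternatives. Without 7-day liver 2 it was 1.29 (adjusted p = 0.00694). After subtraction of the olfactory and vomeronasal receptor background it was 1.68 (adjusted p = 0.00118). The subtraction takes 1 mean value per library, 0.154 eRPKM in 7-day liver 2. The lower quartile over all genes in that liver was 0.426 eRPKM, against 0.0407 and 0.0391 in the other livers at 7 days. The value subtracted therefore need not match the background on this gene, whose part was not tested further. The call was lost with quantile normalization (1.16, adjusted p = 0.0118) and in the libraries without MF in their label (1.29, adjusted p = 0.0116), a suffix of the 3-day livers 1 and 4 and of 7-day liver 2 that was not explained in the sources used here. The pseudocount of 0.5 is larger than most control values, and the change was 2.66 with 0.1 in its place and 3.47 by limma-voom (adjusted p = 0.000209). The step from 3 to 7 days was 1.67 (SE 0.31, adjusted p = 0.00151).

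Igf2bp2, which regulates metabolic mRNAs and persists in adult tissues, lies on chromosome 16 (22059082 to 22163372, minus strand). Its level was 0.746, 1.76, 1.71 and 1.55 eRPKM in controls, 0.727, 1.4, 1.45 and 1.18 after 3 days, and 1.22, 1.91 and 1.28 after 7 days. The groups overlapped, and the log2 fold change was 0.04 at 7 days (95% interval -0.58 to 0.67, adjusted p = 0.923). The gap between Igf2bp1 and Igf2bp2 inside each liver moved from -1.45 in controls to 0.12 at 7 days, by 1.57 log2 units (exact permutation p = 0.0286). Igf2bp1 thus went from well below Igf2bp2 to about the same level.

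Igf2bp3, a classical oncofetal protein of many tumours, lies on chromosome 6 (49035220 to 49164953, minus strand). Controls had 2.58, 2.99, 3.60 and 1.83 eRPKM. After 3 days the values were 0.799, 1.97, 2.15 and 1.03, and after 7 days 2.90, 3.94 and 2.75. The 3-day livers 1 and 4 were below all controls, while livers 2 and 3 were within the range, and at 7 days 2 of 3 livers were within it. The log2 fold change was -0.74 at 3 days (SE 0.29, unadjusted p = 0.0231, limma adjusted p = 0.319, exact permutation p = 0.0857) and 0.20 at 7 days (95% interval -0.47 to 0.88, adjusted p = 0.637).

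Every 7-day liver lay above every 3-day liver in Igf2bp3, and that difference was 0.95 (SE 0.31, adjusted p = 0.0316), which does not pass 0.01. Over the alternatives it ranged from 0.29 to 1.16, and limma-voom on recovered reads called it (adjusted p = 0.00977). Without 7-day liver 2 the difference was 0.81 (limma adjusted p = 0.118). The 3-day livers 1 and 4, with the lowest Igf2bp3, were the 3-day libraries with MF in their label. In the libraries without MF the difference was 0.38 (limma adjusted p = 0.513). The 3-day change against control was then -0.31 (adjusted p = 0.736). Of the 4344 exon bases of Igf2bp3, 1531 overlap exons of Malsu1 (named 2410003K15Rik in the annotation), a mitochondrial ribosome factor on the opposite strand, and without strand the reads of the pair cannot be told apart there. Malsu1 was more abundant, at 28.8 to 38.2 eRPKM in controls and 26.1 to 28.8 at 7 days. It was highest in the 3-day livers 1 and 4, at 57.0 and 69.8 eRPKM, the same livers in which Igf2bp3 was lowest, against 31.3 and 24.9 in livers 2 and 3. The gap between Igf2bp1 and Igf2bp3 moved by 1.41 log2 units from control to 7 days (exact permutation p = 0.0571). No stretch of 50 bases was shared between the transcripts of Igf2bp1, Igf2bp2, Igf2bp3 or the other 5 protein-coding members and those of any other protein-coding gene in GENCODE M1.

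Of 9 tested genes whose proteins bind RNA together with the IGF2BP family, limma called 0 at 7 days. Over all tested genes 18.0% were called up and 5.77% down. In this list 1 gene had an unadjusted p under 0.05, and limma-voom called 0. Their median log2 fold change was 0.01, against 0.26 over all genes. The one with the lowest p, named after its value was seen, was Khsrp, an RNA-binding protein of mRNA decay, with a log2 fold change of 0.93 (adjusted p = 0.0326).

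Lin28b, the let-7 blocking protein on chromosome 10 (45096426 to 45206201, minus strand), had hardly any reads. Its level was 0.110, 0.117, 0.0889 and 0 eRPKM in controls, 0.0803, 0.0295, 0.0291 and 0.0291 after 3 days, and 0.0599, 0.342 and 0.0202 after 7 days. No library had more than 6 reads except 7-day liver 2, which had 19, and the other 7-day livers were within the range of the controls. With no filter on low values the change at 7 days was 0.12 (SE 0.17, limma adjusted p = 0.682, exact permutation p = 0.714). A rise of Lin28b was not detectable at this depth.

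Around LIN28B, 15 genes were tested that code for let-7 processing factors or are known let-7 targets, and limma called 4 up and 0 down at 7 days (26.7% up, against 18.0% of all genes). These were Myc, at 1.87 to 8.02 eRPKM in controls and 16.0 to 49.1 at 7 days (log2 fold change 3.09, SE 0.64, adjusted p = 0.00231), the cell cycle phosphatase Cdc25a (2.09, SE 0.39, adjusted p = 0.00118), the transcription factor Arid3a (1.51, SE 0.26, adjusted p = 0.00068) and the GTPase Nras (0.90, SE 0.15, adjusted p = 0.000456). Of the 27 alternatives the call was lost in 5 for Myc, 2 for Cdc25a and 1 for Arid3a, all 3 of them among livers with more Xist than Ddx3y. For Myc these included leaving out 7-day liver 1 (2.78, adjusted p = 0.0147) or liver 3 (2.93, adjusted p = 0.0135). Myc and Cdc25a have many other regulators and belong to growth and division, and all 8 tested proliferation markers were called up at 7 days as well. The summed level of those markers was 14.7 to 32.6 eRPKM in controls and 199 to 276 at 7 days, and its part in these changes was not tested. The let-7 targets Hmga2 and Mycn and the processing enzyme Dicer1 did not pass, with log2 fold changes of 0.59, -0.03 and -0.07.

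Igf2, the fetal growth factor, and H19, the long noncoding RNA next to it, form an imprinted pair on chromosome 7 in which the paternal copy gives Igf2 and the maternal copy gives H19. Igf2 lies at 149836673 to 149852721 and H19 at 149761434 to 149764048, both on the minus strand, and 98 exon bases of Igf2 overlap Igf2as on the other strand. Igf2 stood at 0.764, 0.375, 0.190 and 0.549 eRPKM in controls. It was 0.602, 0.126, 0.187 and 0.498 after 3 days, and 0.128, 0.770 and 0.0863 after 7 days. No library had more than 20 reads. At 7 days liver 2 was the highest of all 11, and the other two were lower than every control.

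The log2 fold change of Igf2 at 7 days was -0.29 (95% interval -1.03 to 0.45, limma adjusted p = 0.540), and -0.64 without 7-day liver 2 (adjusted p = 0.160). At 3 days it was -0.19 (adjusted p = 0.852). H19 had 0.571, 0.539, 0.308 and 0 eRPKM in controls, 0.278, 0, 0.202 and 0.201 at 3 days, and 0.415, 0.998 and 0.349 at 7 days, on at most 16 reads. Its 7-day livers overlapped with the controls, with liver 2 again the highest of all. The log2 fold change at 7 days was 0.36 (95% interval -0.34 to 1.06, adjusted p = 0.406), and 0.11 without that liver (adjusted p = 0.836). All 3 livers at 7 days were above all 4 at 3 days, by 0.67 on the log2 scale, which did not pass (limma adjusted p = 0.124, exact permutation p = 0.0286). Without 7-day liver 2 that step was 0.41 (limma adjusted p = 0.386). The H19 exons contain the microRNA gene Mir675, whose reads cannot be set apart.

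Dlk1, a transmembrane relative of the Notch ligands that marks hepatoblasts, is an imprinted gene on chromosome 12 (110691033 to 110701546, plus strand). Its level was 0.311, 0.550, 0.335 and 0.322 eRPKM in controls, 0.151, 0.50, 0.438 and 0.110 after 3 days, and 0.0753, 0.644 and 0 after 7 days, on at most 19 reads. At 7 days liver 2 was the highest of all and the other two were the lowest of all. The log2 fold change was -0.34 at 7 days (95% interval -1.03 to 0.35, limma adjusted p = 0.424), and -0.71 without liver 2 (adjusted p = 0.0805). At 3 days it was -0.16 (adjusted p = 0.864). By limma-voom it was -1.96 at 7 days (unadjusted p = 0.0425, adjusted p = 0.0918). In all 26 alternatives run for them the 7-day changes of Dlk1 (-1.96 to -0.11) and Igf2 (-0.96 to -0.0014) were below 0, while those of H19 had both signs, and none was called.

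Summed over H19, Igf2, Dlk1 and Lin28b, 7-day liver 2 had 2.75 eRPKM and 74 reads, against 0.679 and 0.456 eRPKM in the other livers at 7 days. The next highest sums, 1.76 and 1.58 eRPKM, were those of control livers 1 and 2, which also ranked next in the share of olfactory and vomeronasal receptor genes with a read, at 23.5% and 29.9%. The part of that background in these values was not tested beyond the subtraction of 1 mean value per library, which need not match these genes. After it the 7-day changes of Igf2, H19 and Dlk1 were -0.30, 0.35 and -0.36.

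**Figure D4:**
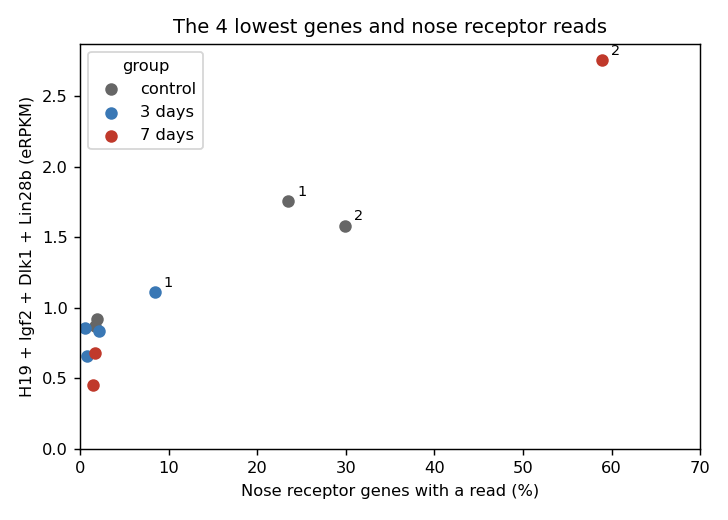
Summed level of H19, Igf2, Dlk1 and Lin28b (vertical axis, eRPKM) against the percentage of 1262 olfactory and vomeronasal (nose) receptor genes with at least 1 read (horizontal axis) in each of the 11 livers; numbers give the liver where that percentage is above 5. Liver 2 at 7 days stands apart at 59.0% and 2.75 eRPKM, and the other 7-day livers lie at 1.43% to 1.66% and under 0.7 eRPKM.

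The list of other imprinted genes, not all of which are silent in adult liver, held 20 tested genes. At 7 days limma called 6 of them up and 1 down, where 18.0% of all genes were called up and 5.77% down. Asb4, a ubiquitin ligase subunit, had 0 to 0.583 eRPKM in controls and 2.17 to 2.88 at 7 days (log2 fold change 1.80, SE 0.34, adjusted p = 0.00122), a call lost with depth as a covariate (1.49, adjusted p = 0.0219) and without 7-day liver 2 and control liver 4. Grb10, an adaptor that dampens insulin and IGF1 receptor signalling, rose from 2.43 to 3.55 eRPKM to 8.45 to 12.9 (1.61, SE 0.24, adjusted p = 0.000274). Gatm, an enzyme of creatine synthesis, rose by 1.60 (SE 0.22, adjusted p = 0.00015). Peg3, a zinc finger protein, rose by 1.33 (SE 0.35, adjusted p = 0.00928), a call lost in 21 of 27 alternatives. Among these was the fit without 7-day liver 2 (1.045, adjusted p = 0.0537). Genes of the same domain as Dlk1 did not follow, with log2 fold changes of 0.02 for Meg3, -0.77 for Rian and -0.48 for Mirg, none of which passed.

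In the IGF system, 14 genes besides Igf2 were tested, and limma called 1 up and 4 down at 7 days. Over all genes the shares were 18.0% up and 5.77% down. Igf2r, the receptor that carries IGF2 to the lysosome, rose from 14.5 to 24.8 eRPKM in controls to 34.8 to 40.4 (log2 fold change 0.90, SE 0.20, adjusted p = 0.00358), a call lost in 9 of 27 alternatives. Igfbp2, a binding protein in plasma, fell from 157 to 270 eRPKM to 23.1 to 37.5 (-2.80, SE 0.38, adjusted p = 0.00012). Igfbp3 and Igfals, which hold the IGFs in the ternary complex of the blood, fell by 1.78 (SE 0.31, adjusted p = 0.000759) and by 1.18 (SE 0.19, adjusted p = 0.000372). Igf1 also fell, by 0.72 on the log2 scale (SE 0.16, adjusted p = 0.00325). The receptor Igf1r had -0.03 (adjusted p = 0.936).

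Of 18 tested genes known as liver tumour or oncofetal markers outside the 10, limma called 9 up and 0 down at 7 days, where 18.0% of all genes were called up. The list was chosen with earlier results of these data known, so its share of calls is not a test of such markers. Scd2, a fatty acid desaturase of embryonic tissues, rose from 2.70 to 5.07 eRPKM in controls to between 34 and 52.4 (log2 fold change 3.19, SE 0.23, adjusted p = 1.8e-06). Prom1, a stem and biliary cell surface protein (2.92, SE 0.76, adjusted p = 0.00953), lost its call in 14 of 27 alternatives. Hk2, the hexokinase of tumours (2.82, SE 0.32, adjusted p = 3.6e-05), and Anxa2, a membrane-binding annexin (2.82, SE 0.22, adjusted p = 2.9e-06), also rose. Some genes of this list are also made by cells other than hepatocytes. Summed macrophage markers were 231 to 468 eRPKM in controls and 794 to 891 at 7 days, and biliary markers 43.1 to 53.4 and 68.0 to 123 eRPKM, and their part in these changes was not tested.

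**Figure D5:**
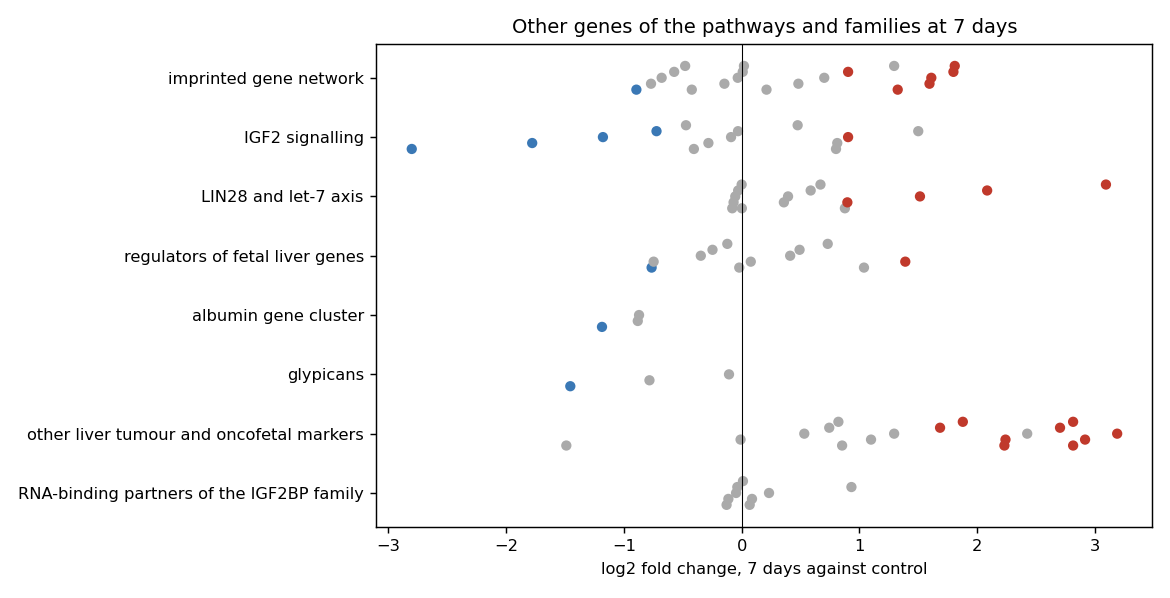
Log2 fold change at 7 days against control (horizontal axis) of each tested gene of 8 lists around the members, 1 point per gene; red marks genes called up, blue genes called down and grey genes not called, and the vertical scatter within a row has no meaning. Tumour markers hold 9 red points of 18, and the RNA-binding partners of the IGF2BP family hold none of 9. The lists were chosen with earlier results of these data known, so these counts are not a test.

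None of the 92 distinct tested genes of these 8 lists was called at 3 days by limma or by limma-voom, with 9 at an unadjusted p under 0.05, where 0.0421% of all genes were called. At 7 days 20 were called up and 8 down, which is 21.7% and 8.70%, close to the 18.0% and 5.77% among all genes.

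Ordered by mean level, controls ran from Afp (5.74 eRPKM) over Igf2bp3, Gpc3, Igf2bp2, Igf2, Dlk1, H19 and Igf2bp1 to Lin28b (0.0789), and in every neighbouring pair the values of single livers overlapped. At 3 days the order was the same. At 7 days Gpc3 led, with every liver above those of Afp, and Afp lay in every liver above Igf2bp3. Igf2bp1 came just ahead of Igf2bp2, from which it did not separate.

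Genes whose profile over the 11 livers came closest to that of Gpc3, by the root mean square difference of log2 values relative to the control mean, were Lrtm2 (0.59), Fam83b (0.84) and Psca (0.86). Lrtm2 went from 0.270 eRPKM in controls to 35.9 at 7 days, Fam83b from 0.212 to 14.3 and Psca from 0.475 to 43.7. For Igf2bp1 they were Fa2h (0.26), Ager (0.27) and Batf3 (0.29), with log2 fold changes at 7 days of 1.73, 1.68 and 1.86.

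Markers of other cells that might carry fetal transcripts were also summed. The embryonic globin Hbb-y was at 0 in all 11 livers and Hba-x in all controls and 3-day livers, and globin and erythroid markers summed to 18.1 to 26.3 eRPKM at 7 days against 19.5 to 80.4 in controls. Of 11 pancreatic acinar markers, 1 passed the filter, and their sum was at most 4.07 eRPKM in any liver.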

How the data were processed

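Total RNA of whole livers was sequenced in read pairs (TruSeq RNA v2). The authors masked low-quality bases and aligned to mm9 with TopHat2 2.0.8 without strand. The submitters' processing notes also name featureCounts 1.4.5-p1, SAMtools and DESeq2. The gene annotation and handling of duplicates are not given in the sources used here. The deposited values were RPKM scaled by the authors (eRPKM). The table also holds the authors' DESeq2 mean, fold change and adjusted p-value for 7 days, which were not used. All 177553 values above 0 were whole multiples of 1 read (tolerance 0.01 reads), from which reads were recovered. Depth was 1251396 to 5941357 reads. Nothing states separate litters, so p-values measure the spread between these livers.

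Genes with at least 0.5 eRPKM in 3 libraries (14244 of 20893) were tested with limma 3.58.1 (R 4.3.3, eBayes with trend) on log2(eRPKM + 0.5), 11 livers in one fit, Benjamini-Hochberg adjusted over all tested genes. The log2 scale understates changes of low genes. Single values had exact two-sided permutation tests (70 or 35 splits, smallest p 0.0286). Tested on simulated data for 7 days against control, the fit called 142 of 200 changed genes in the right direction and 2 unchanged genes, among 14269 genes. The changed genes were drawn from better covered genes and all given the same size of change and the same spread. That rate therefore does not cover members with a few reads per library. Members and lists were chosen with earlier results of these data known. Named were all members, per list the 4 largest changes called at 7 days with a mean of at least 1 eRPKM, all regulators and albumin cluster genes (1 regulator is not reported here and was taken out of its list), and the 3 genes nearest in profile to each called member; further list genes are given as examples. Alternatives were pseudocounts, filters, normalizations, covariates, subsets of libraries, the replicate block, limma-voom, a threshold of 0.05 and leaving out each liver; receptor background subtraction (without the 10% highest receptor genes) and leaving out 2 livers together were chosen after seeing the data. Positions are from GENCODE M1 on mm9. Python 3.11.15, numpy 2.4.6, pandas 2.3.3 and matplotlib 3.10.9 were used.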

Additional observations from a re-analysis of the deposited data

Results flagged for a closer look

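The step from 3 to 7 days stood out for 2 members, whose change against control differed between the time points by the test of the difference itself. For Gpc3, at 1.31 eRPKM on average at 3 days and 83.1 at 7 days, it was a log2 fold change of 5.57 (limma adjusted p = 9.3e-06), higher in 3 of 3 livers. For Igf2bp1 it was 1.67 (adjusted p = 0.00151), also higher in 3 of 3 livers. All 3 livers at 7 days were of the kind with more Xist than Ddx3y, and within such livers the step of Igf2bp1 was 1.76 and did not pass (adjusted p = 0.0118).

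In 18 sets of 4 livers, chance places a single liver this far from the others in about 1 of 20. Control liver 2 stood apart in Dlk1, at 0.550 eRPKM against 0.311 to 0.335 in the others (gap over range 0.897). Liver 1 at 3 days stood apart in Lin28b, at 0.0803 eRPKM against 0.0291 to 0.0295 (gap over range 0.992), which is 2 reads against 1.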

How the results depend on the processing

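The count of members called at 3 days stayed at 0 in all 27 alternatives. At 7 days against control the 2 calls became 1 with a mean filter of 1 eRPKM (which leaves Igf2bp1 untested), with quantile normalization and in the libraries without MF. Against 3 days the 2 calls became 1 in those 3 settings and in livers with more Xist than Ddx3y, and 3 with limma-voom or the 0.05 threshold, which added Igf2bp3. Leaving out 1 liver kept 2 calls at 7 days against control and 2 against 3 days. With the replicate block 2 were called in each. Deviations of same-numbered livers from their group means correlated at -0.22 to 0.27. Differently numbered livers were not compared in this way, so whether the numbers pair the livers was not settled.

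Signs turned only in changes that did not pass. At 3 days, Igf2bp1 was 0.022 (quantile), 0.0013 (more Xist than Ddx3y), 0.025 (without MF), 0.28 (limma-voom), 0.033 (depth covariate), 0.013 (receptor background) and 0.15 (without 7-day liver 2 and control liver 4). Gpc3 at 3 days was 0.026 (pseudocount 0.1), 0.011, 0.20, 0.26, 0.40, 0.16 and 0.39 (in the order quantile, Xist over Ddx3y, without MF, limma-voom, depth and 2 livers left out). Igf2 was 0.091 (Xist over Ddx3y), and without MF Igf2bp2 was 0.026 and Dlk1 0.15. At 7 days against control, Afp was -0.14 (median-ratio), -0.56 (quantile), -0.28 (Xist covariate), -0.52 (Xist over Ddx3y), -0.14 (depth) and -0.038 (2 livers left out). Igf2bp2 was -0.16, -0.46, -0.12, -0.20, -0.11 (without MF) and -0.073. Igf2bp3 was -0.025, -0.47, -0.048 (Xist over Ddx3y), -0.094 (depth) and -0.088. H19 was -0.11 (depth) and -0.13 (2 livers left out). Foxa2 was -0.19, -0.18, -0.071 (replicate block), -0.11, -0.33, -0.0051 (without MF), -0.017 (limma-voom), -0.37 and -0.26. Foxa1 was -0.045 (2 livers left out), Hnf4a 0.16 (quantile), and Zbtb20 0.10 and 0.20 (Xist covariate, Xist over Ddx3y). At 7 against 3 days, quantile normalization gave Afp -0.14 and Igf2bp2 -0.32, the libraries without MF gave Igf2bp2 -0.14, and the Xist covariate gave Igf2 0.016. The cause was not tested.

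Leaving out 1 liver gave ranges across 0 of -0.16 to 0.15 (Igf2bp1) and -0.48 to 0.39 (Gpc3) at 3 days, of -0.25 to 0.34 (Afp), -0.16 to 0.13 (Igf2bp2), -0.18 to 0.24 (Foxa2) and -0.095 to 0.10 (Zbtb20) at 7 days, and of -0.45 to 0.11 (Igf2) and -0.54 to 0.054 (Dlk1) at 7 against 3 days. Members at a few reads per library (H19, Igf2, Dlk1, Lin28b) allow no statement on small changes. Of 636 changes of members under the alternatives, 577 kept sign and call.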
